A study of Homo sapiens with 8 samples.

Results

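Distal H3K27ac regions that were kept in both conditions were examined in HL-60 cells, an established human promyelocytic leukemia line, treated with 1 µM all-trans retinoic acid (ATRA) or with an equal amount of its solvent ethanol for 4 days. Both groups came from this line, and medium and ATRA or ethanol were renewed during the treatment. The ATRA and control groups each had 2 replicate libraries for H3K27ac and 2 for H3K4me3, 8 libraries in all, and the values available were the positions of the broad peaks of each library. The peaks of the 4 H3K27ac libraries were merged into 53143 regions on the human build hg19. Members were selected on the H3K27ac peaks themselves. A region was kept if it was shorter than 20 kb, met a peak in all 4 libraries and had its center more than 2 kb from every annotated transcription start site (TSS). By this rule 2996 regions were chosen, 5.64% of all merged regions. Because H3K27ac peaks chose these regions, their H3K27ac lengths are given as a description without a test, whereas H3K4me3 was not used in the choice.

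Enhancers are stretches of DNA that raise the transcription of genes which can lie far away, and the nucleosomes of active enhancers carry acetylation of lysine 27 on histone H3. Trimethylation of lysine 4 on the same histone marks active promoters above all, so the pair of marks is commonly used to separate promoters from enhancers. HL-60 cells are arrested at a promyelocyte-like stage, and ATRA, a ligand of the retinoic acid receptors, drives them towards granulocytes. Factors such as PU.1, C/EBP and RUNX proteins occupy many enhancers of myeloid cells, and AP-1 and GATA factors bind at others.

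To show what such regions contain, 4 windows of 300 bases at the centers of kept distal regions are printed. They are 3 of the 4 windows with 4 kinds of motif and, among those with 3 kinds, the SKOR1 window, whose region had the longest shared stretch of them. The first window lay in a region of 3142 bp with its center 69088 bp from the TSS of CAB39, a scaffold protein of the LKB1 kinase complex, and no gene covered the center. The second lay in an intron of TBKBP1, which encodes an adaptor of the kinase TBK1, 9229 bp from its TSS. The third lay 65751 bp from SLC16A14, a member of the monocarboxylate transporter family, in a region that also held the TSS of a gene that does not code for protein. The last lay in an intron of MAP2K5, a kinase of the ERK5 pathway, 35010 bp from SKOR1. Sequences are the plus strand of hg19 at chr2:231508320-231508619, chr17:45781710-45782009, chr2:230999311-230999610 and chr15:68076883-68077182, and capitals mark motif matches.
CAB39: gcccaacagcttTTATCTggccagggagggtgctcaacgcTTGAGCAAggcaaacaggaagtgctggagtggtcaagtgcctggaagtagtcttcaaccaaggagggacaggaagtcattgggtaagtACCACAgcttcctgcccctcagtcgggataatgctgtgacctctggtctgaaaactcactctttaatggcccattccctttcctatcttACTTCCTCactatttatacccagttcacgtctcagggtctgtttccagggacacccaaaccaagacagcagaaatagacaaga
TBKBP1: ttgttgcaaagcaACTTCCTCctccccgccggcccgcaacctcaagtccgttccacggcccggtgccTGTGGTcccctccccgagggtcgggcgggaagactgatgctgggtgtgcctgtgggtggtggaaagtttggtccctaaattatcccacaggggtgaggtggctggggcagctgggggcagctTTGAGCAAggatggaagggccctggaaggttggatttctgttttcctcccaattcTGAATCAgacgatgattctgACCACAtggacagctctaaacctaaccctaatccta
SLC16A14: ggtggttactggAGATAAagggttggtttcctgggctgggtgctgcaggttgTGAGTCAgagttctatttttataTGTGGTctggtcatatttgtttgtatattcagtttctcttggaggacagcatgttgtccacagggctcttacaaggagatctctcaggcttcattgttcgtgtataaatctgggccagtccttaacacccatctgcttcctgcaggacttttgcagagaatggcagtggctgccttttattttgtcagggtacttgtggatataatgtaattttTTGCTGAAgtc
SKOR1: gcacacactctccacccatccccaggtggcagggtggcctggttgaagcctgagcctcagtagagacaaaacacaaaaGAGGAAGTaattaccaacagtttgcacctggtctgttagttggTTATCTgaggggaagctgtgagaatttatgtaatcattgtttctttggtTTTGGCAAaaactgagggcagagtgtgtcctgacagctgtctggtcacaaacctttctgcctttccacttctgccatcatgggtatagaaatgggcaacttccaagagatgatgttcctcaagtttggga

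The letters searched on both strands were GAGGAAGT for PU.1, TGTGGT for RUNX, TTGCNNAA for C/EBP, AGATAA for GATA and TGANTCA for AP-1, with N standing for any base, and matches of different motifs were allowed to overlap. The direct repeat of the retinoic acid receptor, spaced by 1, 2 or 5 bases, was searched as well. The CAB39 window held GATA, C/EBP, RUNX and PU.1 matches, and the TBKBP1 window held PU.1, RUNX, C/EBP and AP-1 matches. GATA, AP-1, RUNX and C/EBP matches were found in the SLC16A14 window, and PU.1, GATA and C/EBP matches in the SKOR1 window. These windows are extremes: 1409 of the 2996 member windows (47.0%) held no match, 1170 held 1 kind of motif, 364 held 2, 49 held 3 and 4 held 4. A match is only a run of letters and says nothing about whether a factor was bound.

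The RUNX letters were the most frequent, in 22.5% of the kept distal windows, against 21.4% of the windows of distal regions that were not in all 4 libraries, 13.0% of regions kept within 2 kb of a TSS and 13.1% of 35114 RefSeq promoters (GRCh38.p14). GATA matches were in 17.1% of the kept distal windows and 19.3% of the other distal windows, and C/EBP matches in 14.8% and 15.9%. AP-1 matches were in 9.38% and 9.80%, PU.1 matches in 3.70% and 2.82%, and retinoid repeats in 1.34% and 1.14%. With kept distal windows placed at the center of the shared stretch, retinoid repeats were in 0.785%, below the other distal windows, so the order of these shares depends on where the window lies. The shares of kept and other distal windows lay within a few percentage points for each motif, and both were above the promoters. Base composition moved with this split: the median GC content was 46.3% in kept distal, 43.3% in other distal and 57.7% in kept TSS-near windows, and the mean number of CpG was 4.22, 3.05 and 17.0. The part of base composition in the motif shares was not tested.

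**Figure D1:**
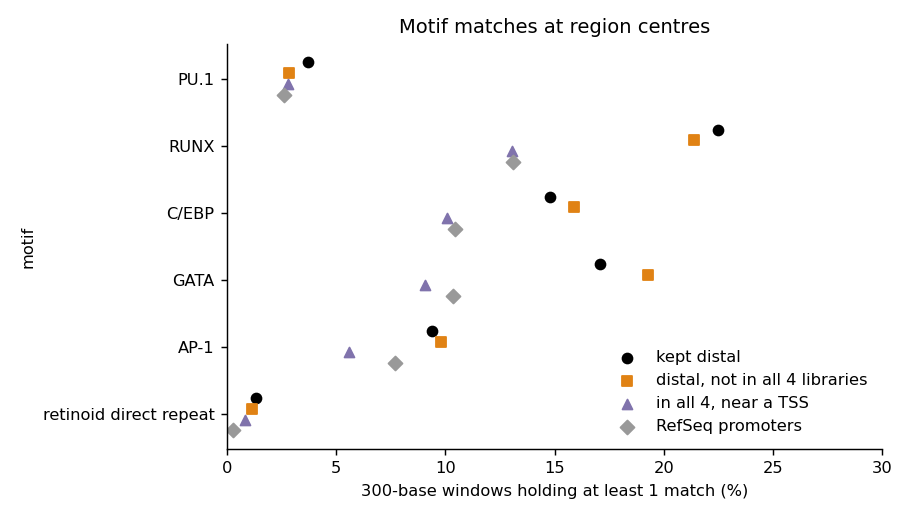
Share of 300-base windows (x axis, percent) that held at least 1 match to each motif (y axis), for kept distal regions, distal regions not in all 4 libraries, regions in all 4 libraries near a TSS, and RefSeq promoters. The points of kept distal and other distal windows sit close together for each motif, with RUNX at 22.5% and 21.4%, and to the right of the promoters at 13.1%.

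The kept distal regions had a median length of 6273.5 bp, with 13036.5 bp at the 90th percentile. Distal regions that were not in all 4 libraries numbered 32312 and had a median of 783 bp. The 3159 distal regions with a peak in both ATRA libraries and none in control had a median of 2155 bp, and the 461 with the opposite pattern 2048 bp. Meeting a peak in all 4 libraries is more likely for a longer region, so length is in part a result of the rule. The other limits of the rule had near neighbors on each side. The members nearest to the distance limit lay 2002 bp (TRAPPC6B) and 2007 bp (GAS7) from a TSS. The regions nearest outside it lay 2000 and 1997 bp from the TSS of genes without a name. The nearest protein-coding genes of these regions were DISP2, 9421 bp away, and NRROS, 28287 bp away. The longest members had 19916 bp (CFAP73) and 19825 bp (IL10RA), and the shortest regions beyond the length limit 20016 bp (UACA) and 20043 bp (PRDM1). A further 191 distal regions were in all 4 libraries but reached 20 kb or more.

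The members lay at a wide range of distances from genes. The median distance from the center to any TSS was 9143 bp, and to the TSS of a protein-coding gene 21913 bp. Centers lay 2 to 5 kb from a TSS in 870 members, 5 to 20 kb in 1395, 20 to 100 kb in 691 and over 100 kb in 40. The rule looked only at centers, so 601 members (20.1%) still held a TSS somewhere within them, against 0.740% of the other distal regions. Under this rule a TSS can lie only in a region that extends more than 2 kb from its center. The other distal regions had a median length of 783 bp, so most could not hold a TSS. This contrast is therefore in part a result of length and the rule. Introns of protein-coding genes held 1483 centers (49.5%), exons 146 (4.87%), other genes alone 351 (11.7%) and no gene 1016 (33.9%). These shares differed from those of the other distal regions by less than 3 percentage points, with 48.2% of the latter in introns and 33.7% outside genes. Of the 1629 members inside a protein-coding gene, 1364 (83.7%) had that gene as their nearest by TSS.

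The 4 libraries seldom marked the same bases throughout. In 2802 members (93.5%) at least 1 stretch lay under a peak in all 4 libraries, with a median of 1092 bp over all members, and in the other 194 the 4 peaks met the merged region without a common base. The longest shared stretch, 13886 bp, lay at chrX:102228050-102245716, where no gene covered the center and the nearest protein-coding gene was RAB40AL, a relative of Rab GTPases. This region had 15339 and 17538 bp of H3K27ac in ATRA replicates 1 and 2, and 13886 and 17142 bp in control replicates 1 and 2. The 4 lengths overlapped between the conditions, and the log2 ratio of the summed lengths was 0.08.

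Regions with the longest shared stretches lay beside genes of blood cells and beside genes with other roles. At CEBPE, the C/EBP factor of late granulocyte development, the region at chr14:23575710-23592611 had 12482 and 13335 bp in ATRA cells and 12408 and 13863 bp in control cells. Neither condition was longer, and the region, which held the CEBPE TSS, had H3K4me3 in all 4 libraries. At ARHGAP25, a Rac-inactivating protein of leukocytes, the lengths were 12031 and 14232 bp in ATRA and 11784 and 15408 bp in control. At LYL1, a basic helix-loop-helix factor of blood progenitors, they were 13675 and 13999 bp in ATRA and 10551 and 12423 bp in control, so that both ATRA libraries exceeded both controls. IQSEC1, an exchange factor for ARF GTPases, and MOB3A were also longer in both ATRA libraries, with log2 ratios of 0.39 and 0.38. ANKS1A, an adaptor of Eph receptors, was shorter in both, with a log2 ratio of -0.25. The regions at SEPHS2, HIP1 and CACNA1C overlapped between conditions, with log2 ratios of 0.01, 0.19 and 0.03. A long shared stretch requires a long peak in each library, which limits the ratio these 10 regions can have.

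Peak length within most members was greater upon the ATRA induction, in 2188 of 2996 (73.0%) by the summed lengths. The same held for 76.9% of the regions kept near a TSS and 75.7% of all 9684 kept regions below 20 kb. The members' median length was 3896 and 4826.5 bp in ATRA replicates 1 and 2, and 1893 and 3648 bp in control replicates 1 and 2. Both ATRA medians exceeded both control medians, but control replicate 1 stood apart, as the shortest of the 4 libraries in 1835 members (61.2%) and with under 500 bp in 370. The median log2 ratio of ATRA to control length was 0.52, with quartiles of -0.05 and 1.20. Between libraries of replicate number 1 it was 0.87, and of number 2 it was 0.30. Without control replicate 1 the median over the regions then kept was 0.46, without control replicate 2 it was 1.12, and without ATRA replicate 1 or 2 it was 0.58 or 0.29. Regions kept near a TSS had a median of 0.36, with 0.40 and 0.30 by replicate number, and the difference from the distal regions was not tested.

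**Figure D2:**
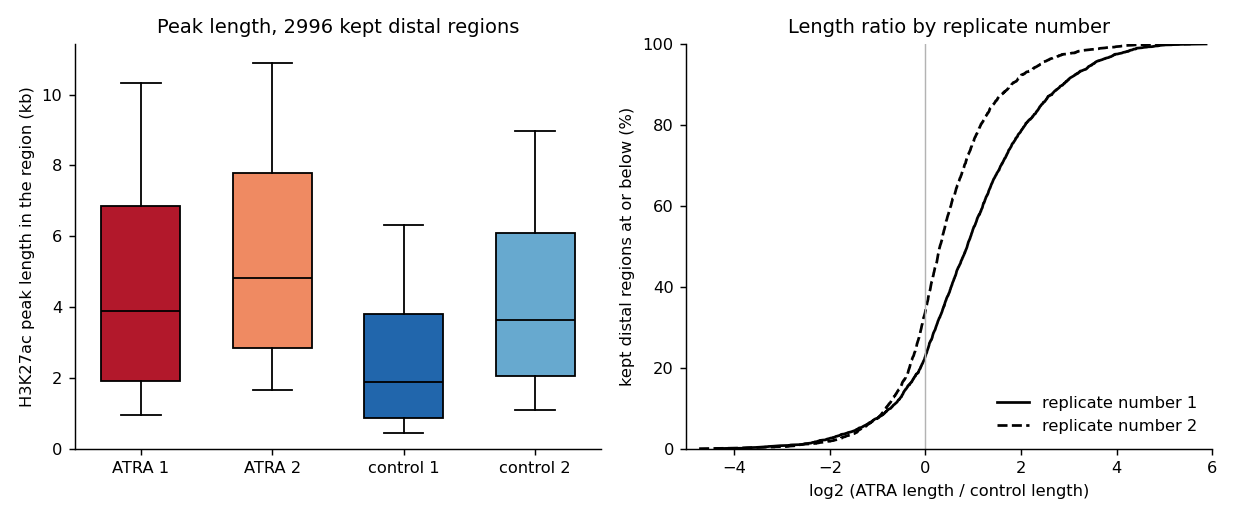
Left, H3K27ac peak length (y axis, kb) in the 2996 kept distal regions for each library, with boxes for the quartiles, a line for the median and whiskers at the 10th and 90th percentiles. Right, share of regions (y axis, percent) at or below each log2 ratio of ATRA to control length (x axis), by replicate number. The median lines lie at 3896 and 4826.5 bp in ATRA and at 1893 and 3648 bp in control, and the curve of replicate number 1 lies to the right.

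Both ATRA lengths exceeded both control lengths in 1268 members (42.3%), and both fell short of them in 276 (9.21%), while the lengths overlapped in 1452 (48.5%). Over the 9684 regions shorter than 20 kb with a peak in all 4 libraries, near a TSS or not, 38.2% were longer and 6.63% were shorter by the same reading. Over all merged regions below 20 kb, where a library without a peak counts as 0 bp, 19% were longer and 2.97% shorter. The 9684 regions include the members themselves. Among the 6688 of them kept near a TSS, 36.4% were longer and 5.47% shorter. Both shares of the members were higher than these, and the difference was not tested. The ATRA libraries had 28200 and 39332 H3K27ac peaks, which covered 64.8 and 86.1 Mb. The control libraries had 15457 and 29616 peaks, which covered 28.8 and 54.0 Mb. Peak numbers overlapped between the groups, whereas the bases covered were greater in both ATRA libraries. With equal numbers of the longest peaks taken from each library, 2184 regions were kept and their median log2 ratio was 0.58. These peaks were picked by length itself. Control replicate 1, with the fewest peaks, kept all of its short ones, while the other libraries kept only their longest. This reading therefore cannot tell whether peak number moved the lengths. The H3K4me3 libraries had 13241 to 16487 peaks. Sequencing depth cannot be read from the peak lists, and whether it moved the lengths was not tested. Each library pools many cells, so a mark in more cells and more mark per cell cannot be told apart.

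At the upper extreme the control peaks were short, down to 200 bp, the shortest length found in these lists. At chr14:96586469-96600870, 77347 bp from BDKRB2, a bradykinin receptor, the lengths were 14402 and 9361 bp in ATRA and 525 and 200 bp in control. At ANTXR2, an anthrax toxin receptor, they were 4704 and 7576 bp in ATRA and 286 and 237 bp in control. Both regions therefore counted as kept only by short peaks in the control cells. A region 172486 bp from NTRK3, the neurotrophin-3 receptor, and one at CFAP45, a protein of cilia, followed with log2 ratios of 4.41 and 4.31. No gene covered the center of the region nearest to NTRK3. H3K4me3 covered 900 and 4824 bp of it in ATRA and was absent from the control libraries.

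At the lower extreme the ATRA peaks were the short ones. At chr1:182305174-182310497, 52646 bp from GLUL, which encodes glutamine synthetase, the lengths were 237 and 200 bp in ATRA and 4273 and 5324 bp in control. At INSR, the insulin receptor, they were 274 and 374 bp in ATRA and 5710 and 5364 bp in control. At ARHGAP15, a Rac-inactivating protein, an intronic region had 200 and 248 bp in ATRA and 2715 and 4804 bp in control. The groups did not overlap at any of these, and none of the 3 had a base common to all 4 libraries. FAM193B and NACC2, a transcriptional repressor with a BTB domain, followed with log2 ratios of -4.06 and -3.94. The NACC2 region had H3K4me3 in all 4 libraries, with 5581 and 3378 bp in ATRA and 6816 and 6052 bp in control. Both ATRA covers lay below both controls.

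**Figure D3:**
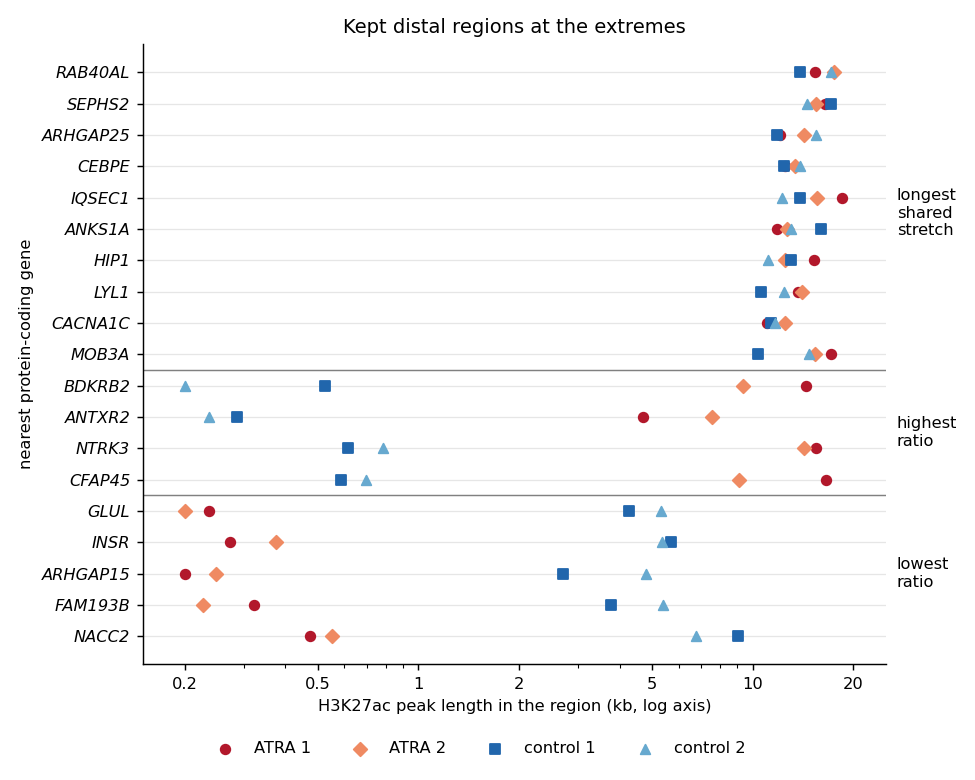
H3K27ac peak length (x axis, kb, log scale) of 19 kept distal regions in each of the 4 libraries, with the nearest protein-coding gene on the y axis. The 10 regions with the longest shared stretch sit at 10 kb or more in each library, whereas at the highest and lowest ratios one condition sits below 1 kb in both replicates.

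H3K4me3 peaks were frequent in the kept distal regions. Such a peak met 49.6% and 43.4% of the members in ATRA replicates 1 and 2, and 54.4% and 30.8% in control replicates 1 and 2. The control libraries were the highest and the lowest, so the groups overlapped. The ATRA mean exceeded the control mean by 3.86 percentage points (exact two-sided permutation test over the 4 libraries, p = 1), and 2 libraries against 2 cannot give a p below 0.33. The difference was -4.87 points within replicate number 1 and 12.6 within number 2. Without control replicate 2 it was -7.96 points, without control replicate 1 it was 15.7, and without ATRA replicate 1 or 2 it was 0.77 or 6.94.

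Among the other distal regions, H3K4me3 met 7.61% and 6.55% in ATRA and 7.05% and 3.54% in control. The share was higher in the kept distal regions in 4 of 4 libraries, by 38.4 ± 8.56 percentage points (SD, n = 4 libraries). The exact two-sided sign-flip p was 0.125, the smallest that 4 libraries can give. All 4 libraries read the same 2 sets of regions, so this test concerns only the agreement of libraries. The sets also differ in how often a TSS lay inside, 20.1% against 0.740%, in part through their lengths. Neither this reading nor the next removes regions that held a TSS. Since members were longer, the comparison was repeated with the base at the center of each region alone. That base lay in an H3K4me3 peak in 23.7% and 19.8% of the members in ATRA and in 25.8% and 12.7% in control. In other distal regions the shares were 4.78% and 4.07% in ATRA and 4.43% and 2.17% in control, a difference of 16.6 ± 4.72 points (SD, n = 4 libraries, exact sign-flip p = 0.125). Regions kept near a TSS had shares of 86.6% to 90.5% by this reading. The 3159 distal regions of the ATRA libraries alone had 0.823% to 4.97%.

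H3K4me3 was present in all 4 libraries in 865 members (28.9%), in 1 to 3 libraries in 979 and in none in 1152 (38.5%). Members with it in all 4 had a median length of 7921 bp and a median distance of 4971 bp to a TSS, against 5253 bp and 10981.5 bp for those without it. Their windows had a mean of 5.52 CpG, against 3.75. A TSS lay inside 42.7% of the former and 9.46% of the latter. The share with H3K4me3 in all 4 libraries was 50.1% at 2 to 5 kb from a TSS, 22.2% at 5 to 20 kb, 16.6% at 20 to 100 kb and 12.5% of the 40 members beyond 100 kb. In members with no TSS inside, H3K4me3 still met 43.0% and 36.5% in ATRA and 48.6% and 22.6% in control. The H3K4me3 peaks at 59.5% to 73.6% of the marked members, depending on the library, held no annotated TSS.

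**Figure D4:**
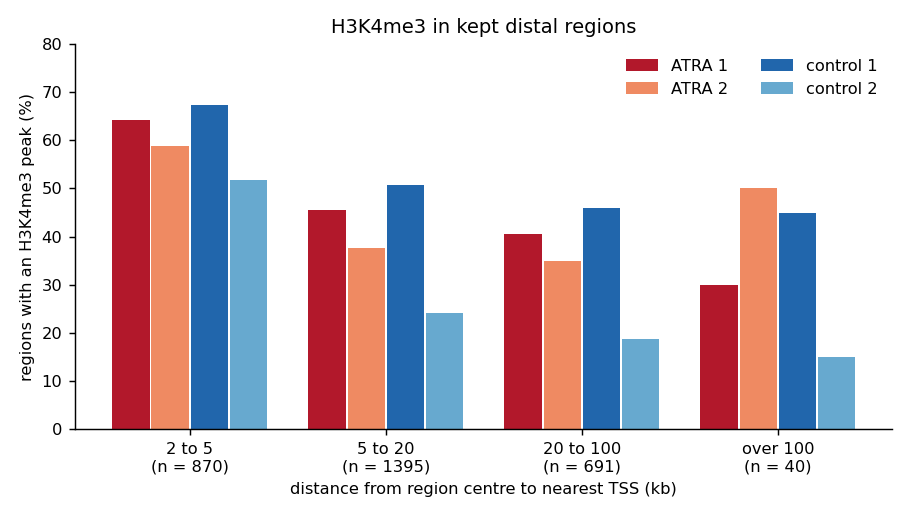
Share of kept distal regions with an H3K4me3 peak (y axis, percent) in each library, by the distance from the region's center to the nearest TSS (x axis, kb). Bars fall from the 2 to 5 kb class to the 20 to 100 kb class in each library, and control replicate 2 is the lowest in each class.

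The longest H3K4me3 cover lay in regions that held a TSS away from their center. At ZBTB7B, a zinc finger factor of lymphocytes, H3K4me3 covered 17922 and 17856 bp in ATRA and 18192 and 17481 bp in control. At LCP1, the actin-bundling L-plastin of leukocytes, it covered 15930 and 15972 bp in ATRA and 17330 and 9890 bp in control. Groups overlapped at both. AKT1S1, an inhibitor of mTORC1, and FAM78A showed covers of 13057 to 15341 bp and 10832 to 13849 bp, again with overlap. At CDKN2C, the cell cycle inhibitor p18, the cover was 13391 and 13850 bp in ATRA and 13251 and 13131 bp in control, and both ATRA libraries were higher by a narrow margin.

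Change in H3K4me3 was compared with change in H3K27ac length in the 1844 members with any H3K4me3. Its cover was greater in both ATRA libraries than in both controls in 343 (18.6%) and smaller in 92 (4.99%). Over all merged H3K27ac regions with H3K4me3, the shares were 15.2% and 3.59%. H3K4me3 was present in both ATRA libraries and no control in 60 members (2.00% of all members), and the reverse in 16 (0.534%). In the 32312 distal regions not in all 4 libraries these counts were 300 (0.928%) and 48 (0.149%), but only 3301 of them had any H3K4me3. Among regions with any H3K4me3, the ATRA-only counts were 60 of 1844 members and 300 of 3301 other distal regions. The control-only counts were 16 of 1844 and 48 of 3301. On that base both shares were lower in the members. Of the 769 members with any H3K4me3 and longer H3K27ac in ATRA, H3K4me3 cover was greater in 175 (22.8%) and smaller in 25 (3.25%). Of the 145 with shorter H3K27ac it was greater in 17 (11.7%) and smaller in 21 (14.5%). Of the 930 whose H3K27ac lengths overlapped, it was greater in 151 (16.2%) and smaller in 46 (4.95%). Both marks came from separate libraries, and this split of the members is a description without a test.

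The members had 2185 different nearest protein-coding genes. Of these, 1662 had 1 member, 342 had 2, 181 had 3 or more and 28 had 5 or more. The 181 genes held 650 members (21.7%). Joined across gaps of up to 10 kb, the members formed 2725 groups, of which 237 held at least 2 members, and the largest held 4, at PTPRJ, at PREX1, at ORAI1 with MORN3, and at IL17RA with TMEM121B. Members numbered from 4.25 per 10 Mb on chromosome X to 18.6 on chromosome 20. As a share of all distal regions below 20 kb, of which 8.49% were kept, they ranged from 5.34% on chromosome 4 to 13.2% on chromosome 22, with 9.58% on X and 10.7% on 20.

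CHST11, a sulfotransferase that builds chondroitin sulfate, had the most members, 9, all with their centers in its introns and 7915 to 132322 bp from a CHST11 TSS. Summed over the 9, H3K27ac covered 33359 and 51067 bp in ATRA and 47770 and 57779 bp in control. The groups overlapped, and the log2 ratio was -0.32. Of the 9 regions, 1 was longer in both ATRA libraries, 3 were shorter and 5 overlapped. The shortest ratio was at chr12:105064262-105068514, with 1036 and 567 bp in ATRA and 4253 and 1716 bp in control. H3K4me3 was present in all 4 libraries at 5 of the 9, among them the farthest, where it covered 2044 and 2039 bp in ATRA and 1858 and 884 bp in control.

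**Figure D5:**
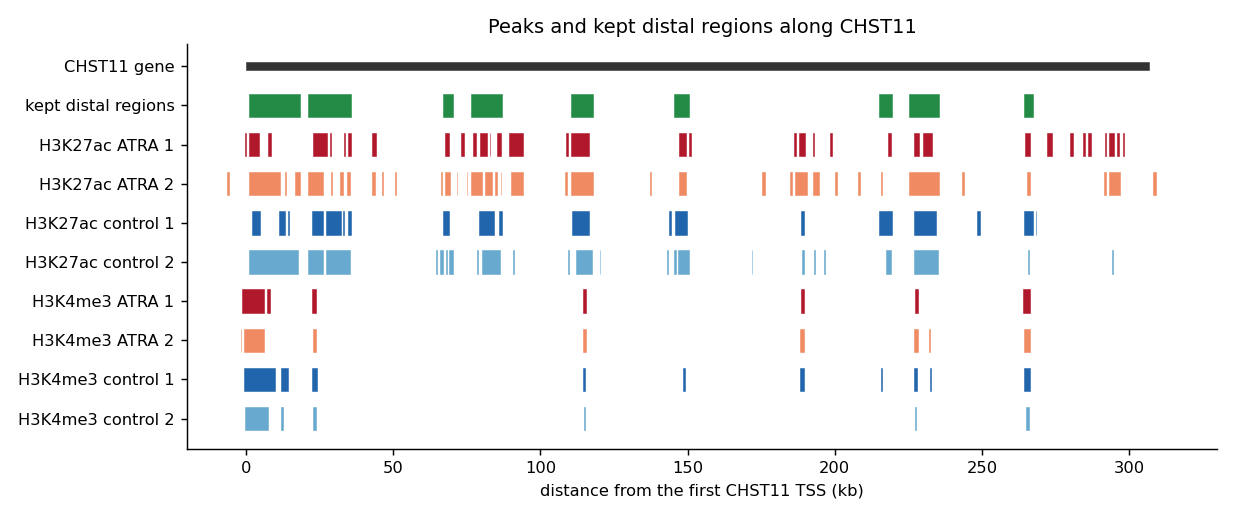
Kept distal regions (green), H3K27ac and H3K4me3 peaks of each library (rows) along CHST11, by distance from its first TSS (x axis, kb). The centers of the 9 regions lie in introns, and H3K4me3 peaks recur in the 4 libraries at 5 of them.

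The next genes by number of members differed in direction. ARHGAP26, a GTPase-activating protein, had 7 members, of which 5 were longer in ATRA and none shorter. Their summed lengths were 45288 and 42304 bp in ATRA and 11944 and 28806 bp in control. COL23A1, a transmembrane collagen, had 6 members with 67102 and 58231 bp in ATRA and 27292 and 26819 bp in control, and 5 of them were longer. The summed lengths did not overlap between the groups at either gene. ID2, an inhibitor of basic helix-loop-helix factors, had 8 members, 34905 to 811108 bp away, with 30221 and 48417 bp in ATRA and 11241 and 33819 bp in control. RPTOR, a subunit of mTORC1, had 6 members with 21777 and 15174 bp in ATRA and 35726 and 24846 bp in control, so that both ATRA sums were lower. By region, however, 2 of the 6 were longer and 1 was shorter. HS6ST1, a heparan sulfate sulfotransferase, had 7 members and also lower sums in both ATRA libraries, with a log2 ratio of -0.27. Of these 7 regions 2 were longer and 1 was shorter, and the mean of their log2 ratios was 0.20. TNFAIP3, which restrains NF-κB signaling, ANKRD44, SPIDR and PTPRJ, a receptor phosphatase, had 6 each, with log2 ratios of the sums of 0.47, 0.62, 1.25 and 0.57. Sums overlapped between the groups at TNFAIP3, ANKRD44 and PTPRJ and did not at SPIDR. NR2F2, an orphan nuclear receptor that was tied with them at 6 members, had a log2 ratio of -0.37, and its sums overlapped. Among genes picked after their values were seen, all members were longer in ATRA at PREX1, an activator of Rac in neutrophils, with 5 members, and at BCOR, a corepressor, and STK10, a lymphocyte kinase, with 4 each. All were shorter at P2RX7, an ATP-gated channel, and RCOR1, a corepressor, with 2 each.

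Genes with known roles in blood cells were taken from 7 lists of 186 genes in all. Of the 2996 members, 149 (4.97%) had such a gene as their nearest. This count is no result by itself, and the share of the other distal regions is given for each list. The list of transcription factors of myeloid cells and progenitors also holds ZFP36L2, which is not a transcription factor. In this list 28 of 51 genes had members, 61 in number, which is 2.04% of the members against 1.80% of the other distal regions. Of the 61, 27 (44.3%) were longer in both ATRA libraries and 8 (13.1%) were shorter, against 42.3% and 9.21% of all members, with a median log2 ratio of 0.33 against 0.52 over all members. RUNX1, a core factor of blood formation, had 4 intronic members. One of these, at chr21:36331632-36342306, had 9678 and 9338 bp in ATRA and 752 and 1452 bp in control, while another, at chr21:36396439-36403066, had 4427 and 6628 bp in ATRA and 4583 and 6341 bp in control. Within the gene, then, 2 members were longer in ATRA and 2 overlapped. ETV6, an ETS-family repressor, had 5 members, ZEB2, a zinc finger repressor, 5, and ZFP36L2, an mRNA-decay protein of progenitors, 5, of which 1, 1 and 3 were longer. At ZEB2 1 member was also shorter, with 683 and 2884 bp in ATRA and 4069 and 5269 bp in control, and the log2 ratio of the sums was -0.25. All 3 members at KLF13 were longer. GFI1, a repressor of granulocyte progenitors, had 4 members that went both ways. The member at chr1:92909546-92916775 had 4051 and 7161 bp in ATRA and 320 and 1836 bp in control, and that at chr1:92874133-92879946 had 3403 and 3905 bp in ATRA and 4139 and 5479 bp in control.

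Other factors were chosen after their values were seen. CEBPA, the C/EBP factor of granulocyte commitment, had a member 7138 bp away with 6527 and 3923 bp in ATRA and 1412 and 2233 bp in control, and CEBPB, a C/EBP factor of mature myeloid cells, had 1 with 3338 and 2346 bp in ATRA and 864 and 281 bp in control. Both were longer in both ATRA libraries. ZBTB16, the PLZF repressor that fuses to the retinoic acid receptor in some leukemias, had an intronic member with 438 and 379 bp in ATRA and 2173 and 1291 bp in control. Of the 3 members at ETS1, an ETS activator, 2 were shorter in ATRA. MYB, a factor of immature blood cells, had 2 members with overlapping lengths, 4277 and 10652 bp in ATRA and 6846 and 15708 bp in control at the longer one.

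Of 26 granule genes, 5 had 1 member each, of which 4 were longer in ATRA and 1 was shorter. The list made up 0.167% of the members and 0.118% of the other distal regions, and 42.3% of all members were longer. At CTSD, the lysosomal protease cathepsin D, the region held a CTSD TSS 2498 bp from its center. The lengths there were 14887 and 12001 bp in ATRA and 915 and 3378 bp in control. At LTF, lactoferrin of the specific granules, they were 3724 and 3089 bp in ATRA and 622 and 817 bp in control. At MMP9, gelatinase B, they were 6297 and 4205 bp in ATRA and 713 and 1645 bp in control. The MMP25 region was longer in ATRA as well, with a log2 ratio of 2.13. In contrast, the region at PRG2, the major basic protein of eosinophils, had 2183 and 6678 bp in ATRA and 7501 and 8522 bp in control, and its H3K4me3 was 4985 and 2233 bp in the controls and absent in ATRA. The subunits of the NADPH oxidase made up 0.0668% of the members and 0.0402% of the other distal regions. Among them, CYBB, the membrane subunit gp91, had a member 33924 bp away with 3455 and 2766 bp in ATRA and 1378 and 304 bp in control. Both ATRA lengths exceeded both control lengths.

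Retinoid genes were rarely nearest to a kept distal region, at 2 of 16 genes. At DHRS9, a retinol dehydrogenase, the region at chr2:169921975-169940200 had 10103 and 18226 bp of H3K27ac in ATRA and 865 and 8886 bp in control. This region held a DHRS9 TSS, 2077 bp from its center. H3K4me3 in the region covered 7851 and 6472 bp in ATRA and 403 and 0 bp in control, with no overlap between the groups. At RXRA, the partner of the retinoic acid receptors, an intronic region had 5204 and 3120 bp in ATRA and 3014 and 1124 bp in control, and no H3K4me3. The list made up 0.0668% of the members and 0.170% of the other distal regions.

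Surface receptors and adhesion molecules had 28 members at 15 of 41 genes, 0.935% of the members against 0.972% of the other distal regions. In ATRA 14 (50%) were longer and 2 (7.14%) shorter, against 42.3% and 9.21% of all members. All 4 members at CD44, the hyaluronan receptor, were longer. Their summed lengths were 49315 and 50389 bp in ATRA and 6517 and 23367 bp in control, without overlap. Both members at CSF1R, the receptor of monocyte growth factor, were longer, with 5893 and 4267 bp in ATRA and 1437 and 1421 bp in control. CXCR4, the receptor that holds progenitors in the marrow, had 5 members of which 2 were longer and 1 shorter, and PTPRC, the leukocyte phosphatase CD45, had 4 of which none was longer and 1 shorter. TLR2 and IL6R had 2 members each.

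Signaling proteins of blood cells had 36 members at 15 of 34 genes, 1.20% of the members against 0.764% of the other distal regions. Of these 15 (41.7%) were longer and 2 (5.56%) shorter, near the 42.3% and 9.21% of all members. LYN, a Src-family kinase of myeloid cells, had 3 members, all longer, with summed lengths of 26379 and 24792 bp in ATRA and 7038 and 10347 bp in control. The sums did not overlap between the groups. PRKCB, protein kinase C beta, had 2 of 3 longer, SYK, a kinase below immune receptors, 1 of 4 longer and 1 shorter, and MAP3K8 none of 3 in either direction. Among regulators of the cell cycle and apoptosis, 16 members lay at 8 of 15 genes, 0.534% of the members against 0.322% of the other distal regions. Of these 5 (31.2%) were longer and 1 (6.25%) shorter. BTG2, an antiproliferative protein, had a member with 7854 and 8903 bp in ATRA and 1072 and 2475 bp in control. BCL2, the antiapoptotic protein, had 3 intronic members, each with H3K4me3 in all 4 libraries, and CDKN1B, the inhibitor p27, 1 with overlapping lengths of 9151 to 11990 bp. CCND2 and CCND3, D-type cyclins, had 3 and 2 members.

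Markers of other cell types were nearest to 6 members in all. Of 18 lymphoid genes only BCL11B had a member, of 18 erythroid and megakaryocyte genes TFRC, GATA1 and SLC4A1 had 4 in all, and of 18 hepatocyte and neuron genes GRIN1 had 1. The erythroid and megakaryocyte list made up 0.134% of the members against 0.0371% of the other distal regions, whereas the lymphoid list made up 0.0334% against 0.0959% and the hepatocyte and neuron list 0.0334% against 0.0495%. None of the 4 erythroid and megakaryocyte members had lengths separated between the groups. Of 10 genes that mark HL-60 cells, CEBPE, CSF3R and CEBPA had 1 member each, and 4 had a kept region within 2 kb of a TSS. MPO, ELANE, PRTN3, AZU1, CTSG, SPI1 and CD33 had no member. The list made up 0.100% of the members against 0.0402% of the other distal regions. At CSF3R, the receptor of granulocyte growth factor, the lengths were 9721 and 10590 bp in ATRA and 3135 and 8850 bp in control. This region held a CSF3R TSS, 2059 bp from its center.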

How the data were processed

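ChIP-seq peak lists of H3K27ac and H3K4me3 were used, with 2 ATRA and 2 control libraries per mark. The methods of the study state that adapters were removed, reads were aligned to hg19 with Bowtie and broad peaks were called with MACS2, and the labels also name cutadapt and MACS. Tool versions, the use of the input DNA in the peak call and whether replicates came from separate cultures are not given in the sources used here. The deposited lists give peak positions with enrichment and significance columns. Positions were the main values, and the −log10 q value that the authors deposited served only as a filter at 5 in an alternative. Columns of fold and of −log10 p-value contain impossible numbers and were left out. Read counts behind a peak are unknown, so no counting interval could be given.

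Peaks of the 4 H3K27ac libraries were merged, touching peaks joined. A region's length in a library is the number of its bases under peaks of that library, and its ratio is the log2 of the summed ATRA over the summed control lengths. TSS of all 254413 transcripts, or of 89217 protein-coding transcripts for nearest genes, came from GENCODE release 44 mapped to GRCh37. H3K4me3 overlap needed at least 1 bp. "Longer" and "shorter" mean that the lengths of both ATRA libraries lay above or below both controls. The H3K4me3 shares of libraries were compared by an exact permutation test, and the sign-flip test and the reading at the center base were added after the data were seen.

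Regions were named by a rule: the longest shared stretches, the highest and lowest ratios among regions without overlap of the groups, the longest H3K4me3 cover, the regions beside each limit, the genes nearest to most members and up to 6 genes of each list. The members and the lists were chosen with earlier results of these data known. Some items that this rule named are not reported here. Merging and overlap were tested on simulated peaks. Python 3.11.15, numpy 2.4.6, pandas 2.3.3, scipy 1.17.1 and matplotlib 3.10.9 were used.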

Additional observations from a re-analysis of the deposited data

How the results depend on the processing

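Each alternative changed 1 choice. The 2996 kept distal regions became 4 with only peaks of −log10 q of at least 5, 1764 with only peaks of at least 1 kb and 468 where each library had to cover at least 50% of the region, and their number stayed within 1.5 times under the other rules, from 2076 with edges over 2 kb from each TSS to 3831 with protein-coding TSS only. Leaving out 1 library gave 3218 to 5055 regions, the most without control replicate 1. The median log2 length ratio of 0.52 was above 0 under each alternative, from 0.13 with at least 50% coverage to 0.86 with the stricter threshold, and from 0.29 to 1.12 when 1 library was left out. The H3K4me3 difference of 3.86 points turned to -0.32 with at least 50% coverage, ranged from -7.96 to 15.7 when 1 library was left out, and was otherwise between 1.05 and 12.5, the last from the 4 regions of the stricter threshold. No exact p was below 0.33. Replicate numbers were also used as pairs: deviations of same-numbered ATRA and control libraries had a correlation of 0.45 over members for H3K27ac and 0.19 for H3K4me3, but the labels do not say what the numbers share. With the replicate block the length ratio was 0.61 and the H3K4me3 difference 3.86 (exact p = 1, where 0.5 is the smallest possible), a design in which no call could be made or lost. With windows at the center of the shared stretch, 51.7% held a motif in place of 53.0%, AP-1 10.5% in place of 9.38% and retinoid repeats 0.785% in place of 1.34%. Taking the gene whose body holds the center left 149 members at blood-cell genes, 143 of them shared. Causes of these shifts were not tested. With 2 libraries per condition, small length changes cannot be told from replicate spread.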
